A study of Mus musculus with 6 samples.

Results

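NF-κB pathway components and feedback genes of Met-1 TripZ-200c cells are described here: the Rel family subunits, their IκB inhibitors and nuclear cofactors, the kinases and adaptors upstream, the ubiquitin editing feedback genes and 2 genes induced by the pathway. The 38 members are parts of the pathway, chosen when earlier results from these libraries were known and matched by gene symbol, and all 38 were found among the 43548 genes of the deposited table. Met-1 is a line of mouse mammary carcinoma from the FVB/nJ strain. Its TripZ-200c derivative holds a lentiviral pTripZ vector with an RFP tag and the precursor of miR-200c, which is transcribed when doxycycline (Dox) is added. Cells of both groups are 1 clone, sorted for no RFP without Dox and for intermediate RFP with it, so results describe that clone. The MinusDox group received the vehicle, water, and the PlusDox group 1 µg/mL Dox, both for 48 h, with 3 libraries of mRNA per group. Empty vector cells were not analysed here, so miR-200c restoration and Dox itself cannot be told apart.

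NF-κB dimers are held in the cytoplasm by IκB proteins. In the canonical route, receptors such as the TNF receptor recruit adaptors and the IKK complex, which marks IκB for degradation and frees dimers of RELA and p50. In the non-canonical route, the kinase NIK (Map3k14) accumulates and p100 (Nfkb2) is processed to p52, the partner of RELB. Several inhibitors are themselves transcribed by NF-κB, so that a rise in their mRNA can follow pathway activity as well as restrain it.

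The mature miRNA produced from the vector's precursor is shown first because its seed, bases 2 to 8, is the part that pairs with target mRNAs. Sequences are those of RefSeq on GRCm38.p6, with the seed in capitals. miR-200c-3p lies on the minus strand at chr6:124718324-124718346 and shares its seed with miR-200b-3p and miR-429-3p, whereas miR-141-3p and miR-200a-3p carry another.
mmu-miR-200c-3p: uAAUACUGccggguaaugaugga
mmu-miR-200b-3p: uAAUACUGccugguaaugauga
mmu-miR-429-3p: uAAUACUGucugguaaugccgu
mmu-miR-141-3p: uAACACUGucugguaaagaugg
mmu-miR-200a-3p: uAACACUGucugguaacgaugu

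The match to the miR-200c seed, CAGTATT, was sought in the longest annotated 3′ UTR of each member in GENCODE M21. It was present in 4 of 38 members (10.5%), against 1823 of 10812 tested genes with an annotated 3′ UTR (16.9%). The median 3′ UTR was 1427 bases long among members and 1385 bases among the genes tested. The members with a match were Tbk1, Map3k7, Tab3 and Tnfaip3, each with 1. Neither member called lower with Dox had one. By the same search Zeb1 and Zeb2, established miR-200c targets, each held 5. The 4 matches are shown in capitals with 8 bases on either side, the first on the minus strand at chr10:121547025-121547047, the second on the plus strand at chr4:32022968-32022990, the third on the plus strand at chrX:85634004-85634026 and the fourth on the minus strand at chr10:19001721-19001743.
Tbk1: ctacacttCAGTATTtgatgagg
Map3k7: cgttgcttCAGTATTgataagct
Tab3: cgacctaaCAGTATTtccctgtt
Tnfaip3: tccttctgCAGTATTttcttgag

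Expression was given as FPKM, the fragments on a gene scaled to transcript length and to the total of mapped reads. Depth is divided out of this unit. From the steps between the lowest values, the depth relative to MinusDox replicate 1 was 0.920 and 1.31 in the other MinusDox libraries and 0.987, 1.49 and 1.12 in the PlusDox libraries. All 37 mitochondrial genes were listed at 0 in every library, so a listed 0 need not mean absence of transcript. The 12879 genes whose mean reached 1 FPKM were compared with limma on log2(FPKM + 0.1), where a fold change understates that of low genes, and were called at a Benjamini-Hochberg adjusted p under 0.05. The labels say that cells were plated in triplicate, so p-values measure the spread between cultures of the clone, which may be technical in part.

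The label of the cells was first checked against markers. Of the epithelial markers, Krt18, a keratin of simple epithelia, had 96.4, 91.2 and 92.1 FPKM in MinusDox and 364, 395 and 400 FPKM in PlusDox libraries (limma adjusted p = 3.61e-06). Epcam also rose, from 0.0844, 0.137 and 0.161 FPKM to 4.31, 3.88 and 3.98 FPKM, by 4.20 on the log2 scale (limma adjusted p 5.26e-04). With 1 or 0.01 added to FPKM in place of 0.1, its log2 fold change was 2.16 or 4.93. Crb3 was listed at 0 in all 3 MinusDox libraries and at 4.31, 2.60 and 2.06 FPKM with Dox (limma adjusted p 0.00211). Krt8, Cdh1 and Esrp1 lay below the filter on low values. Their means were 0.262, 0.0585 and 0.0307 FPKM without Dox and 0.736, 0.828 and 0.242 FPKM with it. Without the filter their limma adjusted p were 0.0972, 0.0125 and 0.0785. Zeb1 and Zeb2, the transcription factors that miR-200c is known to repress, fell by 0.98 and 1.81 on the log2 scale (limma adjusted p 3.62e-04 and 4.48e-05), which fits the Dox labels. Vim, Twist1 and Snai1 fell too, so 5 of 6 mesenchymal markers were called lower, and Snai2 was not called. The Crb3 call was lost in the unmoderated model on FPKM (adjusted p up to 0.0793 over the alternatives) and that of Vim under quantile normalization (up to 0.0514). That of Snai1 was lost without MinusDox replicate 2 or 3 or any PlusDox library, at adjusted p from 0.0637 to 0.0965 in limma (0.0253 to 0.0986 over all alternatives).

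Markers of other cell types were low apart from a few genes that carcinoma lines can also express. The 8 leukocyte markers summed to 14.0, 11.9 and 7.53 FPKM without Dox and 7.91, 8.19 and 9.28 FPKM with it. Most of that was Cd68, at 6.31 to 11.3 FPKM, while Adgre1, Cd3e and Ncr1 were listed at 0 throughout and Ptprc, the pan-leukocyte marker, did not exceed 0.161 FPKM. The 4 endothelial markers summed to between 4.19 and 5.12 FPKM, nearly all of it Cdh5. The 4 fibroblast markers summed to 50.4, 52.0 and 52.7 FPKM without Dox and 32.3, 31.8 and 29.9 FPKM with it. Pdgfrb, their most abundant gene in the MinusDox libraries, had a log2 fold change of -1.06 (limma adjusted p = 9.78e-05). Pdgfra had one of -0.27 (limma adjusted p = 0.0410), a call lost whichever library was left out, at 0.0501 to 0.119, and ranging from 0.0362 over all alternatives. Dcn reached at most 0.896 FPKM, and Lum was listed at 0. In such bulk samples of 1 clone, fewer cells that express a marker and less RNA per cell cannot be told apart. The part of these markers in the NF-κB results was not tested.

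Of the 38 members, 37 passed the filter, with means over the 6 libraries from 1.92 FPKM (Il1r1) to 152 FPKM (Tnfaip2). Icam1, an adhesion molecule, did not. With Dox, 12 of the 37 were called, against 15.0% of all genes tested. The 10 called higher, against 7.06% of all genes, were Nfkb2, Relb, Nfkbia, Nfkbib, Nfkbie, Map3k14, Traf1, Traf2, Tnfaip3 and Tnip1. The 2 called lower, against 7.97%, were Tnfaip2 and Tnfrsf1a. The values with and without Dox did not overlap in 17 of the 37 members, 12 above and 5 below, against 35.0% of the 12875 tested genes without a missing value. The median log2 fold change was 0.06 over the 37 members and 0.00 over all genes tested. The higher calls lay among subunits, inhibitors, ubiquitin editing genes, adaptors and, with Map3k14, kinases, as the plot of fold changes by role shows.

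**Figure D1:**
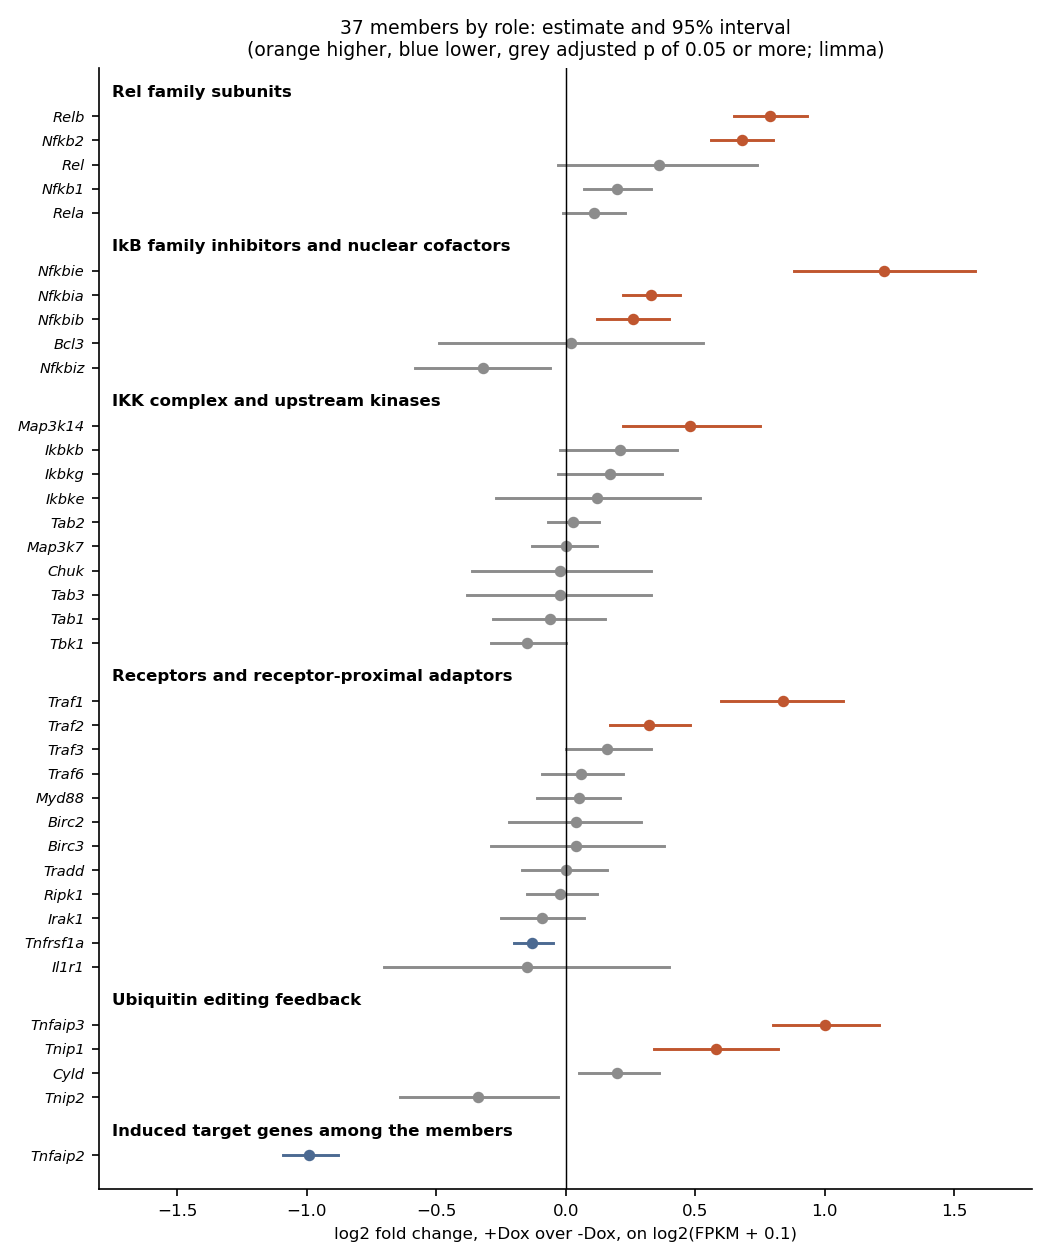
Log2 fold change of the 37 members that passed the filter, PlusDox over MinusDox on log2(FPKM + 0.1), grouped by role; points are limma estimates, lines 95% intervals, orange marks the 10 called higher, blue the 2 called lower and grey the 25 not called. Nfkbie, Tnfaip3, Traf1, Relb and Nfkb2 lie farthest to the right and Tnfaip2 farthest to the left.

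The promoters of called members were read next, because NF-κB is known to regulate several of its own components. RefSeq promoters on GRCm38.p6, from 250 bases before to 50 bases after each start, were present for 32 of the 38 members; Nfkb1, Relb, Nfkbiz, Ikbkb, Tab1 and Tradd had no entry. The κB consensus was sought on both strands, with overlapping matches joined. It was found in 13 of the 32 members (40.6%), against 2581 of 27025 genes with a promoter (9.55%) and 8.46% of all promoters. Some members were listed as feedback or induced genes of NF-κB, so the choice of the list itself favours matches. The 27025 genes were not limited to those tested here. It was found in 5 of 9 members called higher, 1 of 2 called lower, 7 of 20 not called and not in Icam1, which was below the filter. A match describes letters and is no evidence of binding. For each called member with a match, the stretch around it is shown with the matched bases in capitals and 20 bases on either side. The stretches lie at chr19:46304678-46304755 for Nfkb2 and chr17:45555574-45555623 for Nfkbie on the plus strand, at chr12:55492647-55492696 for Nfkbia, chr10:19015393-19015555 for Tnfaip3 and chr11:54962967-54963018 for Tnip1 on the minus strand, and at chr12:111442617-111442666 for Tnfaip2 on the plus strand.
Nfkb2: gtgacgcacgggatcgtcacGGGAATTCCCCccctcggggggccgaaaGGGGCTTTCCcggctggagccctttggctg
Nfkbie: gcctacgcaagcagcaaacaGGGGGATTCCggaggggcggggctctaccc
Nfkbia: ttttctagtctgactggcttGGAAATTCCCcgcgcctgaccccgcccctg
Tnfaip3: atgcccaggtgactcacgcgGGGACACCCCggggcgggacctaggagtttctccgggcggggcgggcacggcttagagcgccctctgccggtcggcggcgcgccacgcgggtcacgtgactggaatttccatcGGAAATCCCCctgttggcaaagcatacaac
Tnip1: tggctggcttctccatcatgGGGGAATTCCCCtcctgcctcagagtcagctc
Tnfaip2: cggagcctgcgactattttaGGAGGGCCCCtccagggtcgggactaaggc

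Nfkb2 and Tnfaip3 each held 2 joined matches and the others 1. Matches of Nfkbia and Tnip1 began 29 and 58 bases before the start, and those of Tnfaip3, present at 1 of its 2 starts, 125 and 12 bases before it. Nfkb2 has 3 starts, each with a match in its promoter, and the matches shown began 39 and 11 bases before 1 of them. In Nfkbie the match began 106 bases before the start, and in Tnfaip2, which was lower with Dox, 24 bases before it. No match was found in the promoters of Nfkbib, Map3k14, Traf1, Traf2 or Tnfrsf1a, which says only that these letters are not in those windows.

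Among the Rel family subunits, the pair of the non-canonical route was called higher with Dox, against 7.06% of all genes tested. Relb (ENSMUSG00000002983, chr7:19606217-19629438) had 14.4, 14.9 and 13.9 FPKM in MinusDox and 24.2, 25.8 and 25.0 FPKM in PlusDox libraries. The groups were far apart, each within a narrow range. Its log2 fold change was 0.79 (SE 0.0586, limma adjusted p = 3.38e-04), a 1.73-fold rise. Nfkb2 (ENSMUSG00000025225, chr19:46304320-46312385), whose product p100 is both an inhibitor and the precursor of p52, had 30.5, 30.8 and 28.2 FPKM without Dox and 47.4, 48.7 and 47.5 FPKM with it. All 3 PlusDox libraries lay above all 3 MinusDox libraries, with a log2 fold change of 0.68 (SE 0.0516, limma adjusted p = 3.71e-04). Of the longest Nfkb2 transcript, 13.1% is shared with a non-coding gene on the opposite strand, for which no value was found, and reads of the 2 strands cannot be told apart in FPKM without the strand setting.

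The other 3 subunits were not called. Nfkb1, the precursor of p50, had 68.9, 76.8 and 77.2 FPKM without Dox and 86.4, 86.7 and 82.1 FPKM with it. The groups did not overlap, yet the log2 fold change of 0.20 (SE 0.0551) missed the threshold at a limma adjusted p of 0.0561. With genes of at least 5 FPKM alone it passed, at 0.0494, and its adjusted p ranged from there to 0.151 over the alternatives. Rela, the main transactivating subunit, had 61.2, 56.3 and 58.7 FPKM in MinusDox and 60.5, 64.3 and 65.8 FPKM in PlusDox libraries. These groups overlapped, since 1 PlusDox library lay below the highest MinusDox library, and the log2 fold change was 0.11 (SE 0.0511, limma adjusted p = 0.193). Rel, a subunit best known from lymphocytes, was the least abundant, at 5.56, 4.34 and 3.69 FPKM without Dox and 5.79, 5.39 and 6.07 FPKM with it. MinusDox replicate 1 reached into the PlusDox range, and the log2 fold change of 0.36 (SE 0.164) had a limma adjusted p of 0.202.

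FPKM is scaled to transcript length, so the subunits can be added within a library. The 5 subunits summed to 181, 183 and 182 FPKM without Dox and to 224, 231 and 226 FPKM with it. Relb made up 7.92% ± 0.243 of that sum without Dox and 11.0% ± 0.194 with it (SD, n = 3). Nfkb2 made up 16.4% ± 0.789 and 21.1% ± 0.0676 (SD, n = 3). The share of Rela was 32.3% ± 1.58 without Dox and 28.0% ± 1.03 with it, and that of Nfkb1 was 40.9% ± 2.37 and 37.4% ± 1.15 (SD, n = 3). Rela and Nfkb1 were the 2 most abundant subunits at the mRNA level in every library, as the stacked bars of family levels show. These shares are descriptions and were not tested.

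**Figure D2:**
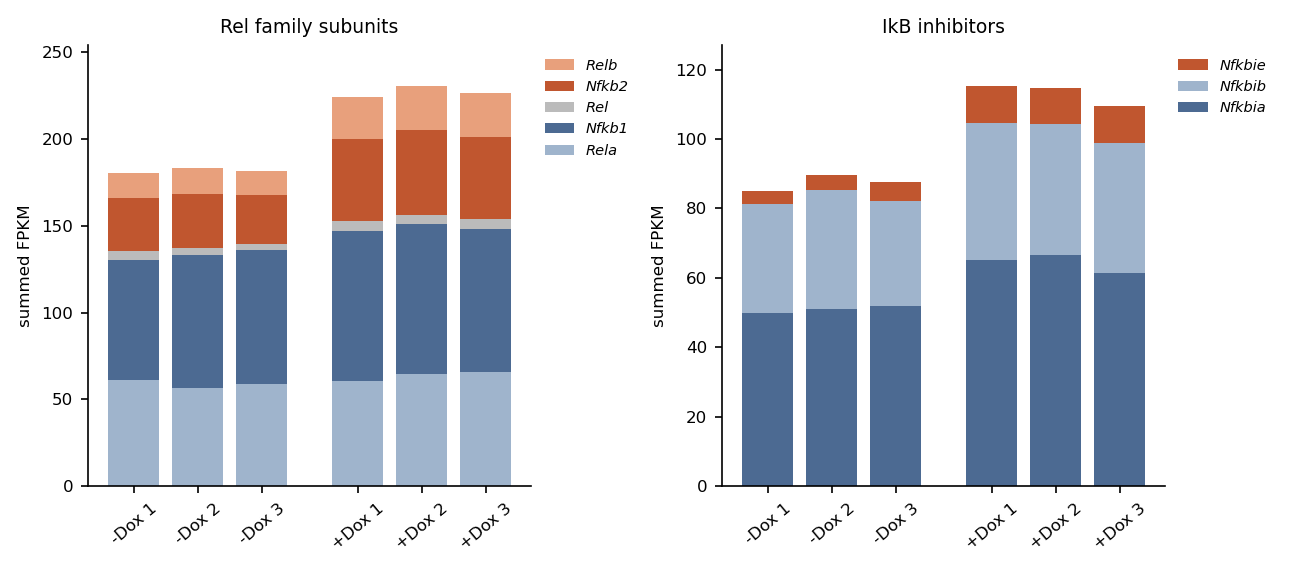
Stacked FPKM of the 5 Rel family subunits (left) and of the 3 IκB inhibitors (right) in each of the 6 libraries, 3 without Dox and 3 with Dox; bar height is the sum in that library. The subunit sum lies between 181 and 183 FPKM without Dox and between 224 and 231 FPKM with it, and the Relb and Nfkb2 segments are taller in all 3 PlusDox libraries.

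The 3 IκB inhibitors were all called higher, against 7.06% of all genes tested. Nfkbie, which encodes IκBε (ENSMUSG00000023947, chr17:45555703-45563169), had 3.77, 4.35 and 5.63 FPKM without Dox and 10.8, 10.5 and 10.9 FPKM with it. The lowest PlusDox library was well above the highest MinusDox library. Its log2 fold change of 1.23 (SE 0.149, limma adjusted p = 0.00253) was the largest among the members, a 2.34-fold rise. Nfkbia, which encodes IκBα, the inhibitor of the fastest feedback loop, had 49.9, 51.1 and 51.9 FPKM in MinusDox and 65.2, 66.6 and 61.3 FPKM in PlusDox libraries. The groups did not overlap, and the log2 fold change was 0.33 (SE 0.0465, limma adjusted p = 0.00443). Nfkbib, which encodes IκBβ, had 31.4, 34.2 and 30.2 FPKM without Dox and 39.4, 37.6 and 37.4 FPKM with it. These groups were separate too, with a log2 fold change of 0.26 (SE 0.0603, limma adjusted p = 0.0311). The Nfkbib call was lost without MinusDox replicate 1 or 3 or any PlusDox library, at adjusted p from 0.0805 to 0.0951 (0.0248 to 0.0951 over all alternatives). It was also lost in limma without the trend, in both unmoderated models and with the replicate block. Ccer2, a gene on the opposite strand that covers 15.3% of the longest Nfkbib transcript, was listed at 0 in every library.

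Nfkbia was the most abundant inhibitor in every library. The 3 inhibitors summed to 85.1, 89.7 and 87.7 FPKM without Dox and to 115, 115 and 110 FPKM with it. Nfkbie made up 5.23% ± 1.05 of the sum without Dox and 9.49% ± 0.422 with it (SD, n = 3). Of the nuclear cofactors of the same family, Nfkbiz (IκBζ) went the other way in its values, at 8.57, 7.14 and 8.02 FPKM without Dox and 6.76, 5.83 and 6.37 FPKM with it. The groups did not overlap, but the log2 fold change of -0.32 (SE 0.109) had a limma adjusted p of 0.102. Bcl3, a cofactor of p50 and p52 homodimers, had 5.63, 7.01 and 8.96 FPKM without Dox and 6.06, 9.30 and 6.52 FPKM with it. The groups were intermixed, with a log2 fold change of 0.02 (SE 0.217, limma adjusted p = 0.970). Its estimate turned to -0.14 without MinusDox replicate 1 and to -0.17 without PlusDox replicate 2.

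**Figure D3:**
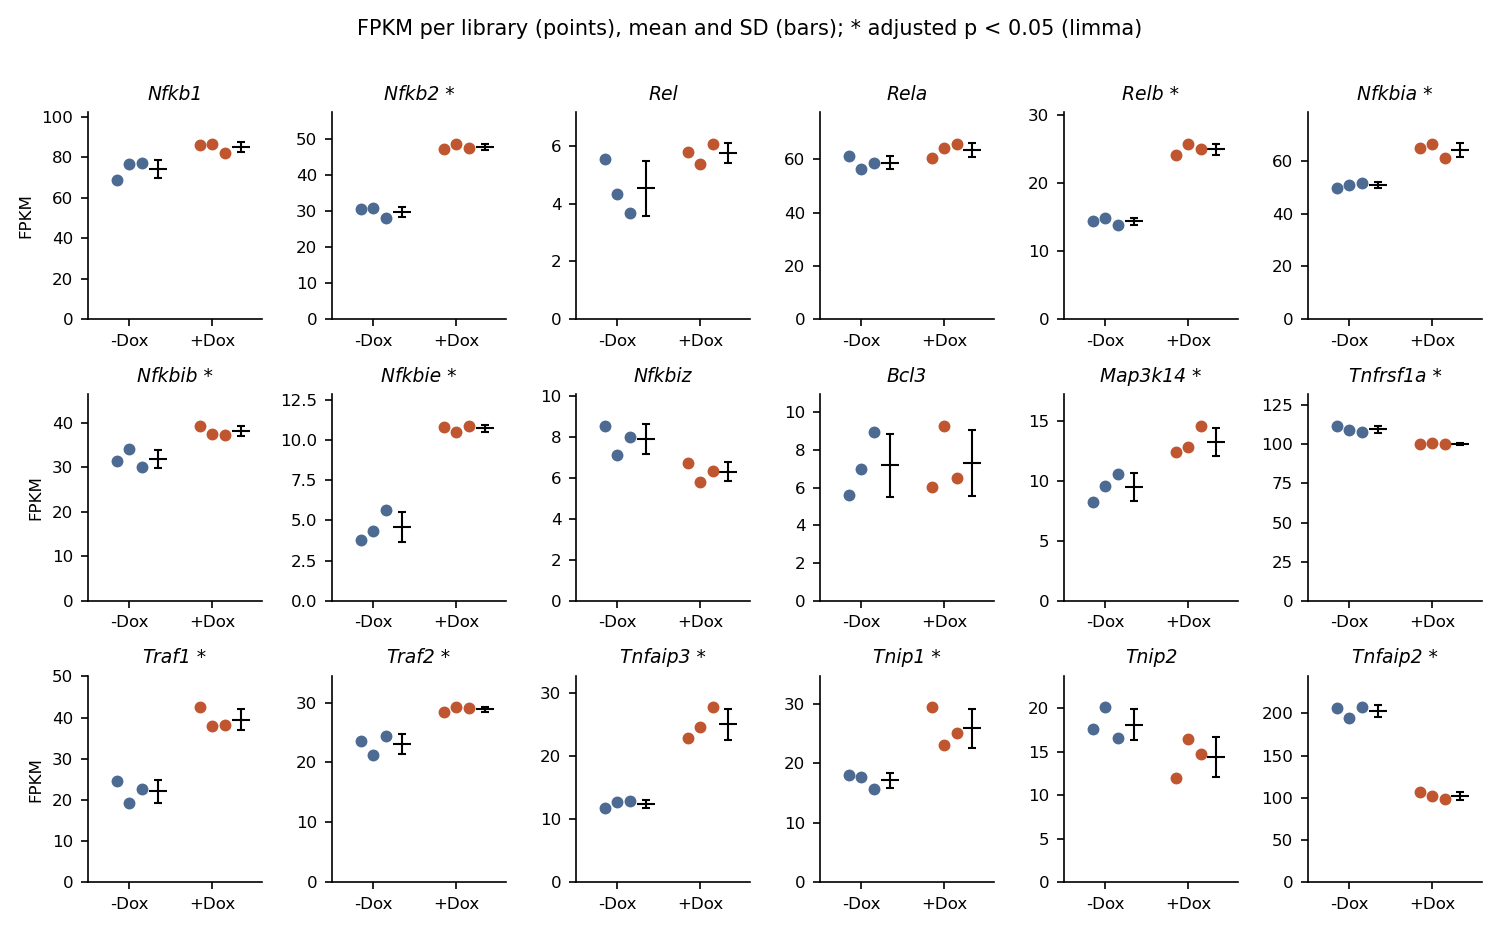
FPKM of the 18 members given with values, in each of 3 MinusDox (blue) and 3 PlusDox (orange) libraries, with mean and SD as bars; each axis starts at 0, and an asterisk marks an adjusted p under 0.05 from limma. Relb, Nfkb2, Nfkbie, Traf1 and Tnfaip3 show separate groups of higher values with Dox, and Tnfaip2 of lower values.

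Of the 10 IKK complex genes and upstream kinases, 1 was called, which is no larger a share than the 15.0% of all genes tested. Map3k14, the NIK kinase that starts the non-canonical route, had 8.26, 9.59 and 10.6 FPKM in MinusDox and 12.4, 12.8 and 14.6 FPKM in PlusDox libraries. All 3 PlusDox values were higher, with a log2 fold change of 0.48 (SE 0.114, limma adjusted p = 0.0316). The call was lost without MinusDox replicate 1 or 2 or any PlusDox library, at adjusted p from 0.0596 to 0.108 (0.0277 to 0.108 over all alternatives). The Map3k14 call was also lost with no filter, in limma without the trend and in both unmoderated models. The IKK genes Chuk, Ikbkb and Ikbkg, the related kinases Ikbke and Tbk1, and Map3k7 with its partners Tab1, Tab2 and Tab3 were not called. Their log2 fold changes ran from -0.15 for Tbk1 to 0.21 for Ikbkb. Ikbkb alone among them passed in an alternative, without MinusDox replicate 1, at a limma adjusted p of 0.0466, against 0.202 with all 6 libraries and up to 0.421 over the alternatives.

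Among the 12 receptors and receptor-proximal adaptors, 2 were called higher and 1 lower with Dox, against 7.06% and 7.97% of all genes tested. Traf1, an adaptor of TNF receptor complexes that NF-κB itself induces, had 24.7, 19.2 and 22.6 FPKM without Dox and 42.5, 37.9 and 38.2 FPKM with it. The groups were widely separated, with a log2 fold change of 0.84 (SE 0.0992, limma adjusted p = 0.00230). Traf2, its partner and a scaffold for the ubiquitin ligases that degrade NIK, had 23.6, 21.2 and 24.5 FPKM without Dox and 28.4, 29.2 and 29.1 FPKM with it. That difference was smaller but without overlap, with a log2 fold change of 0.32 (SE 0.0663, limma adjusted p = 0.0192). The Traf2 call was lost without any 1 of the PlusDox libraries, at adjusted p from 0.0536 to 0.0706 (0.0160 to 0.0706 over all alternatives). It was also lost in the unmoderated model on log2(FPKM + 1).

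Tnfrsf1a, the main TNF receptor, was among the most abundant members, at 112, 109 and 108 FPKM without Dox and 100, 101 and 100 FPKM with it. Its values were tight and separate, yet the log2 fold change was only -0.13 (SE 0.0328, limma adjusted p = 0.0431). The call was lost whichever library was left out, at adjusted p from 0.0691 to 0.125 (0.0258 to 0.125 over all alternatives). The Tnfrsf1a call was also lost in limma without the trend and with the replicate block. The other 9, Il1r1, Myd88, Irak1, Tradd, Ripk1, Traf3, Traf6 and the inhibitor of apoptosis genes Birc2 and Birc3, were not called. Their log2 fold changes ran from -0.15 for Il1r1 to 0.16 for Traf3. Myd88 shares 11.4% of its longest transcript with Acaa1a on the opposite strand.

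The ubiquitin editing genes end signalling by removing or binding ubiquitin chains. Tnfaip3, which encodes the A20 enzyme (ENSMUSG00000019850, chr10:19000910-19015657), had 11.7, 12.7 and 12.9 FPKM without Dox and 22.8, 24.6 and 27.7 FPKM with it. Every PlusDox library was above every MinusDox library, and the log2 fold change was 1.00 (SE 0.0864, limma adjusted p = 5.92e-04). Tnip1, which encodes the A20 partner ABIN-1, had 18.1, 17.7 and 15.7 FPKM without Dox and 29.4, 23.1 and 25.1 FPKM with it. The groups were separate and the PlusDox values more spread, with a log2 fold change of 0.58 (SE 0.102, limma adjusted p = 0.0108), a call lost in both unmoderated models (0.00866 to 0.0815 over all alternatives). Tnip2, which encodes the related ABIN-2, had 17.6, 20.1 and 16.6 FPKM without Dox and 12.0, 16.5 and 14.7 FPKM with it. The highest PlusDox value lay just below the lowest MinusDox value, and the log2 fold change of -0.34 (SE 0.129) had a limma adjusted p of 0.135. Cyld, a deubiquitinase, was not called, with a log2 fold change of 0.20.

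Of the 2 induced target genes among the members, 1 was called lower, against 7.97% of all genes tested, and 1 lay below the filter. Tnfaip2 (ENSMUSG00000021281, chr12:111442469-111455018), a TNF-induced gene linked to membrane protrusions, had the highest mean over all libraries among the members, 152 FPKM. In PlusDox replicates 2 and 3, Irak1 was higher, at 104 and 103 FPKM. In PlusDox replicate 3, Tnfrsf1a and Tab2 were also higher than Tnfaip2, at 100 and 98.9 FPKM. Tnfaip2 had 206, 194 and 207 FPKM without Dox and 107, 102 and 98.1 FPKM with it. No PlusDox library came near the MinusDox values. Its log2 fold change of -0.99 (SE 0.0440, limma adjusted p = 4.48e-05) was the only fall of more than 1.5-fold among the members. Icam1 was listed at 0 in all 3 MinusDox libraries and at 0.0335, 0 and 0.0589 FPKM with Dox. Without the filter its limma adjusted p was 0.439, and values this low are near the limit of detection.

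The other genes of the pathway were grouped in 3 wider lists, drawn together in the plot of those lists. Of 24 ligands and receptors, 8 passed the filter, with 0 called higher by limma and 3 lower, against 7.06% and 7.97% of all genes tested. The median log2 fold change was -0.10, against 0.00 over all genes tested. Il1a, Il1b, Tnfsf11, Tnfsf12 and Cd40 were listed at 0 in every library, and Tnf was above 0 in only 1, at 0.0475 FPKM. The genes called were Il1rap, the co-receptor for interleukin 1, Tlr4, the endotoxin receptor, and Tnfrsf12a, the receptor for TWEAK. Il1rap had 27.4, 28.2 and 29.8 FPKM without Dox and 23.7, 21.8 and 21.8 FPKM with it, with no overlap (log2 fold change -0.34, limma adjusted p = 0.0115, from 0.00926 to 0.0506 over the alternatives, the latter without PlusDox replicate 3). Tnfrsf12a, at 687 to 721 FPKM without Dox and 618 to 644 FPKM with it, had a log2 fold change of -0.17 (limma adjusted p = 0.0107, and up to 0.0725 under quantile normalization or without the trend). Tlr4 had one of -0.33 (limma adjusted p = 0.0372), a call lost without MinusDox replicate 2 or 3 or any PlusDox library at adjusted p of 0.0972 to 0.111 (0.0126 to 0.117 over all alternatives).

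Of 34 further adaptors, kinases and ubiquitin genes, 33 passed the filter, and 4 were called higher and 1 lower, against 7.06% and 7.97% of all genes tested. These 5 calls among 33 are a share like the 15.0% of all genes, and the median log2 fold change was 0.05. Optn, which encodes the ubiquitin-binding adaptor optineurin, had 10.2, 10.3 and 10.0 FPKM without Dox and 19.2, 19.1 and 20.2 FPKM with it. The groups were each very tight, with a log2 fold change of 0.93 (limma adjusted p = 2.13e-04). Card10, the scaffold that joins Bcl10 and Malt1 in epithelial cells, had 14.4, 13.9 and 15.5 FPKM without Dox and 25.3, 26.1 and 24.2 FPKM with it. Its log2 fold change was 0.79 (limma adjusted p = 5.66e-04), and that of its partner Bcl10 was 0.25 (limma adjusted p = 0.0366). The Bcl10 call was lost whichever library was left out, at adjusted p from 0.0503 to 0.112 (0.0312 to 0.112 over all alternatives). Map3k3, a kinase upstream of IKK, rose by 0.41 (limma adjusted p = 0.00314), and Pdlim2, a ubiquitin ligase for nuclear RELA, had a log2 fold change of -0.73 (limma adjusted p = 0.0108, and 0.0570 to 0.0686 in the unmoderated models).

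Of 35 genes known to be induced by NF-κB, 24 passed the filter, and 9 were called higher and 2 lower, against 7.06% and 7.97% of all genes tested. The median log2 fold change was 0.11, against 0.00 over all genes tested. The higher ones were Ccl20, Cxcl1, Csf3, Lif, Lcn2, Ier3, Junb, Ptgs2 and Plaur, and the lower ones Ccnd1 and Cd44. The calls of Ier3, Junb, Ptgs2, Plaur and Cd44 were lost without some single libraries: MinusDox replicate 2 for all 5, MinusDox replicate 1 for all but Plaur, MinusDox replicate 3 for Plaur, PlusDox replicate 1 for Ptgs2, Plaur and Cd44, PlusDox replicate 2 for Ier3, Ptgs2 and Plaur, and PlusDox replicate 3 for all 5. Their highest adjusted p over all alternatives in limma and the unmoderated models were 0.124, 0.0845, 0.110, 0.123 and 0.0783. The Ccnd1 call was lost in limma without the trend, at an adjusted p of 0.0520 (0.00297 to 0.0520 over all alternatives). Ccnd1 shares 29.5% of its longest transcript with a gene on the opposite strand. Ccl20, a chemokine for CCR6-bearing cells, went from 0.632, 1.30 and 1.54 FPKM without Dox to 12.4, 13.2 and 9.09 FPKM with it. That separation is wide, with a log2 fold change of 3.27 (SE 0.318, limma adjusted p = 9.76e-04). Cxcl1, a neutrophil chemokine, had 39.5, 35.4 and 40.1 FPKM without Dox and 114, 124 and 134 FPKM with it, a log2 fold change of 1.70 (limma adjusted p = 4.48e-05). Csf3, which encodes G-CSF, Lif, a cytokine of the interleukin 6 family, and Lcn2, a siderophore-binding protein, had log2 fold changes of 1.56, 0.83 and 0.52 (limma adjusted p 2.13e-04, 0.00113 and 8.07e-04). Ccl2, Ccl7, Il6 and Nos2 were listed at 0 in every library, which need not mean absence of transcript. Csf2, which encodes GM-CSF, and Cxcl10 lay below the filter. Their means were 0.0779 and 0.989 FPKM without Dox and 0.0857 and 0.726 FPKM with it. Without the filter their limma adjusted p were 0.969 and 0.775. Sod2, Bcl2l1 and Myc were not called, with log2 fold changes of 0.08, 0.12 and 0.10, and Csf1, at 445 to 458 FPKM, had one of 0.02.

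**Figure D4:**
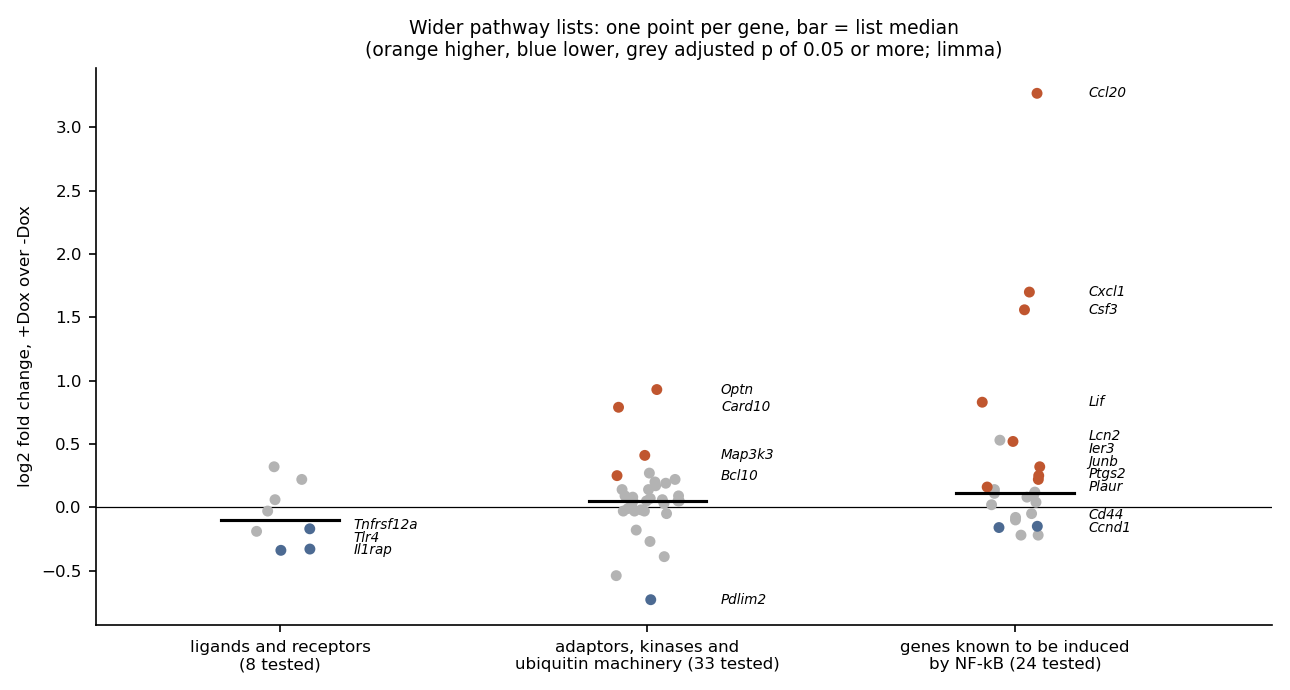
Log2 fold change, PlusDox over MinusDox, of the genes that passed the filter in 3 wider lists: 8 ligands and receptors, 33 adaptors, kinases and ubiquitin genes, and 24 genes known to be induced by NF-κB. Points are genes, black bars list medians, orange and blue mark genes called higher and lower by limma; Ccl20, at 3.27, lies highest and Pdlim2, at -0.73, lowest.

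Across the 16 alternative fits, 7 of the 37 members passed an adjusted p under 0.05 in each: Nfkb2, Relb, Nfkbia, Nfkbie, Traf1, Tnfaip3 and Tnfaip2. How many of all genes passed in every fit was not counted. It is at most 1014 of 12879, those called both in the main fit and without PlusDox replicate 3. With a minimum change of 1.5-fold, Nfkbia was not called. mRNA levels say nothing of protein processing, degradation or nuclear location, through which NF-κB activity is largely set, and none of these was measured here.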

How the data were processed

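mRNA of Met-1 TripZ-200c cells, 3 MinusDox and 3 PlusDox libraries, was sequenced from stranded libraries as single reads. The authors mapped reads with gSNAP to the mouse genome (GRCm38.p6, with an FVB_NJ assembly also named) and deposited Cufflinks FPKM per gene and library; the strand setting is not given in the sources used here. The authors' columns of group means, fold changes, p-values and q-values were not used. Of 43611 rows, 63 with a repeated identifier were dropped, and 6 placeholders in 4 genes were set to missing. No member symbol was repeated. Groups came from the sample labels.

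The 12879 genes whose mean reached 1 FPKM were put on the scale log2(FPKM + 0.1), and groups were compared by limma (version 3.58.1, under R 4.3.3; eBayes with a trend), adjusted by Benjamini-Hochberg over all of them; below the filter, the fit without it was used. On simulated data the model recovered 51 of 66 genes given a log2 change of 1, 29 of 67 given 0.5 and 8 of 67 given 0.25. Of its 93 calls, 5 were genes given no change. The simulated noise was normal and independent, with each gene's SD taken from these libraries. Far fewer genes were changed there than were called here, so these rates check the code and are not the power of this comparison. An exact permutation test of 3 against 3 libraries cannot give p below 0.1. Values are given for every called member, every Rel and IκB gene, and others with separate groups and a log2 fold change of at least 0.3 in size; of wider lists, called genes are named, at most 5 with values. Members and lists were chosen with earlier results of these data known. Sod2, Bcl2l1, Myc, Csf1, Csf2, Cxcl10, Cyld, Tnf, genes listed at 0 and genes at the ends of a range were named after their values were seen. Shared sequence between transcripts was sought by BLAST (2.17.0; 95% identity, 50 bases or more). Python 3.11.15 was used. Alternatives were other pseudocounts, filters, scalings, variance models and thresholds, the replicate block, and leaving out each library.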

Additional observations from a re-analysis of the deposited data

How the results depend on the processing

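Of the 10 members called higher, 6 were called by the unmoderated model on log2(FPKM + 1), 6 at an adjusted p under 0.01 and 5 with a minimum change of 1.5-fold; the count was 7 to 9 without single libraries. Of the 2 called lower, Tnfaip2 was called throughout, and the count was 1 in limma without the trend, in the replicate block, at an adjusted p under 0.01, with a 1.5-fold minimum and without any single library (1 to 1), the call of Tnfrsf1a being the one lost. Of all genes, 1935 were called, against 1289 in the unmoderated model on FPKM, 770 at an adjusted p under 0.01, 452 with a 1.5-fold minimum and 1048 to 1359 without single libraries, where fewer samples were fitted. Members below the filter numbered 1, 0 without a filter and 4 with a minimum mean of 5 FPKM. Of the 18 members given with values, only Bcl3 changed sign, to -0.14 without MinusDox replicate 1 and -0.17 without PlusDox replicate 2, with a range of -0.17 to 0.19 without single libraries. In 32 of 288 values for these members a call was lost, in 1 (Nfkb1) one was gained; apart from the fewer samples of some fits, the cause was not tested. The median log2 fold change of all genes stayed between -0.01 and 0.01 in every fit.

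The replicate numbers are shared by the groups, and same-numbered libraries deviated together with correlations of 0.0287, 0.0359 and -0.00759. Those of differently numbered libraries ran from -0.0511 to 0.0235. Values this low cannot decide whether same-numbered libraries were handled together. With the replicate block, 1337 genes and 10 members were called, 10 of these among the 12 called without it, and Nfkbib (adjusted p = 0.0641 from limma) and Tnfrsf1a (0.106) were lost. Among the markers and wider lists, the block also ended the calls of Snai1 (adjusted p = 0.0681 from limma), Pdgfra (0.0828), Tlr4 (0.0557) and Bcl10 (0.0713). Those of Plaur and Cd44 were lost with it too. Both unmoderated models ended the calls of Snai1, Pdgfra, Tlr4 and Bcl10 as well. No member symbol was repeated, so summing entries of a symbol, in place of the highest mean, gave no value. FPKM removes depth, so the reads behind a value are unknown, and levels near 0 allow no statement of change.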
